A study of Danio rerio with 6 samples.

Results

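Embryonic globin transcripts were examined in cells of zebrafish (Danio rerio) heads sorted for a scarb2a reporter. The genes were taken by name, as every row of the deposited table whose symbol begins with hbae or hbbe and goes on with a digit. This gave 9 of 11218 rows: the α-globin rows hbae1, hbae1.3 and hbae3, and the β-globin rows hbbe1.1, hbbe1.2, hbbe1.3, hbbe2_1, hbbe3 and hbbe3_1. They were chosen with their values in all 6 libraries known, including their wide spread among the mutant libraries. Their levels, their difference between genotypes and that spread are therefore given as a description, with no test.

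There were 3 libraries from scarb2a mutants (mutant 1, 2 and 3) and 3 from their wild type siblings (wild type 1, 3 and 4), all at 48 hours post fertilization. In mammals the counterpart of scarb2a makes LIMP-2, a protein of the lysosomal membrane. The labels used here name no allele. Both genotypes were sorted on the same transgenes, TgBAC(scar2ba:KalTA4; UAS-mKate2), in which regulatory sequence of the gene drives a red fluorescent protein, so that the sorted cells are those in which that sequence is active. Each library was made from 5000 live sorted cells of a pool of 50 dissociated heads, so single animals were not measured. The labels call the libraries of a genotype biological replicates. The 3′ ends of polyadenylated transcripts were counted by a bulk form of MARS-seq, and all levels below are the deposited normalized counts.

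Haemoglobin carries oxygen in red blood cells and is built from α-globin and β-globin chains, each holding a haem group. Zebrafish embryos use embryonic globin genes that are replaced by adult ones later in life. The genes lie in clusters in which α and β genes alternate, and several are copies of each other. Red blood cells circulate through the head by the stage studied, and globin transcripts are among the most abundant transcripts of those cells. No sequence of these genes was used here.

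Globin transcripts were found mainly in 1 of the 6 libraries. The 9 members together came to 2287.3 normalized counts in mutant 1, 19.9 in mutant 2 and 354.4 in mutant 3. Among the wild type libraries they came to 0 in wild type 1 and wild type 3 and to 8.0 in wild type 4. Mutant 1 held 85.9% of the globin signal of the mutants, at 115 times the level of mutant 2 and 6.45 times that of mutant 3. In these sorted bulk samples, more red blood cells and more globin RNA per cell cannot be told apart.

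The counts behind these sums set how far the low libraries can be separated. Mutant 1 had 2210 globin counts (95% exact Poisson interval 2119 to 2304), mutant 2 had 20 (12.2 to 30.9) and mutant 3 had 391 (353 to 432). Wild type 4 had 10 (4.80 to 18.4). The intervals of mutant 2 and wild type 4 overlap. Such an overlap is no test of a difference, and the difference between these libraries was not tested. In wild type 1 and wild type 3 no globin count was seen, which allows a share of up to 1.92e-04 and 1.88e-04% of all counts (3 counts). The share was 0.120% in mutant 1 (exact binomial interval 0.115 to 0.125%), 0.00104% in mutant 2 (6.36e-04 to 0.00161%), 0.0194% in mutant 3 (0.0176 to 0.0215%) and 4.79e-04% in wild type 4 (2.30e-04 to 8.81e-04%). Library totals were 1838121, 1921206 and 2011118 counts in mutant 1, 2 and 3, and 1560238, 1599314 and 2086990 in wild type 1, 3 and 4. Over the 6 libraries the order of the globin levels is not the order of these totals. Within wild type, the library with globin counts has the largest total. The part of the totals in the globin levels was not tested. Intervals and floors cover counting error only.

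As a mean over libraries, the summed members were at 887.2 ± 1224 normalized counts in mutants and 2.67 ± 4.62 in wild type (SD, n = 3 each). The mutant SD is larger than the mutant mean. The difference of the mean log2(value + 1) was 6.95, mutant minus wild type. It was 5.37 without mutant 1, which left 19.9 and 354.4 in the mutant group. It was 8.76 without mutant 2.

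**Figure D1:**
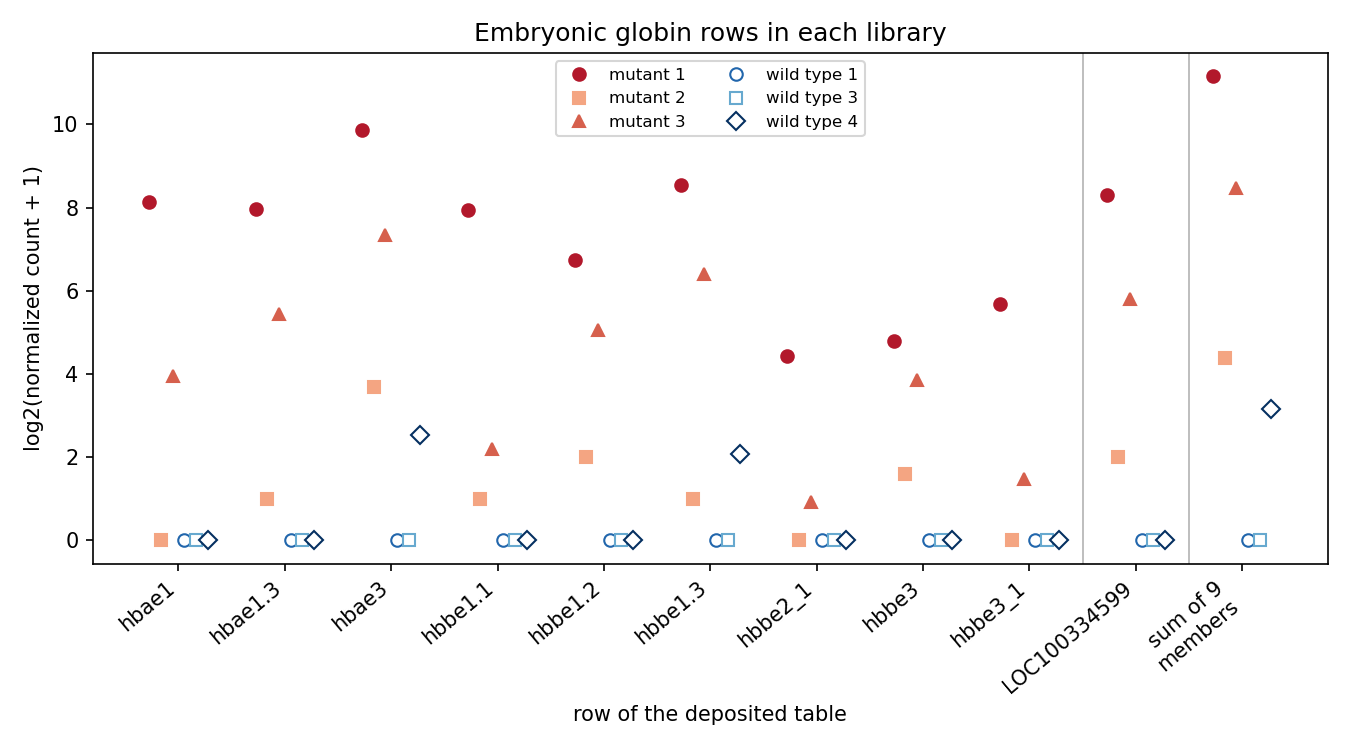
Level of each embryonic globin row in each library, as log2(normalized count + 1); points are single libraries, filled for mutant and open for wild type, and the last columns are LOC100334599, which is no member, and the sum of the 9 members. Mutant 1 is highest in every column, mutant 3 comes after it, and wild type 1 and wild type 3 lie at 0 throughout.

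The α-globin rows carried more than 60% of the member counts in mutant 1 and mutant 3. hbae3, an embryonic α-globin gene, had 935.6, 11.9 and 160.5 normalized counts in mutant 1, 2 and 3, against 0, 0 and 4.8 in wild type 1, 3 and 4. It was the row with the most counts in each of the 4 libraries that had any globin count. All 3 mutant values lie above the wild type ones, by the least in mutant 2. The summed counts gave a ratio of 166 between mutant and wild type (95% exact interval 75.9 to 452), and of 42.0 without mutant 1 (19.0 to 116). These intervals pool the libraries of a genotype and cover counting error only, not the spread between libraries. Mutant 1 held 904 of the 1093 mutant counts.

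hbae1, matched by an older symbol to hbae1.1 in the RefSeq gene table, had 280.5, 0 and 14.5 normalized counts in mutant 1, 2 and 3, and 0 in each wild type library. For this row mutant 2 stands at 0 with the wild type libraries, so the genotypes meet there. hbae1.3, another α-globin copy, had 249.4, 1.0 and 42.6 in mutant 1, 2 and 3, and again 0 in each wild type library; its value in mutant 2 is a single count. Against a floor of 3 counts over the wild type group, the mutant mean of hbae1 stood at 97.0-fold and that of hbae1.3 at 96.4-fold. Without mutant 1 these values were 7.15 and 21.5. No counting error was set on the mutant side.

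Another row belongs beside these by its identifier. LOC100334599 carries the gene ID that the RefSeq table of the assembly GRCz12tu gives to hbae1.3, although the deposited table has a row named hbae1.3 as well. It had 313.6, 3.0 and 54.4 normalized counts in mutant 1, 2 and 3, and 0 in each wild type library. It is not among the 9 members, whose names decided their choice. Its profile over the libraries is close to theirs. How the counting divided reads between both rows is not stated in the labels or the table.

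Of the β-globin rows, hbbe1.3 had the most counts in mutant 1 and mutant 3. It had 372.6, 1.0 and 84.3 normalized counts in mutant 1, 2 and 3, against 0, 0 and 3.2 in wild type 1, 3 and 4. The genotypes overlap here, since wild type 4 lies above mutant 2. The ratio of summed counts was 103 (95% exact interval 40.0 to 380), and 31.4 without mutant 1 (11.8 to 117), where the intervals again leave out the spread between libraries. hbbe1.1, named as a further copy of hbbe1, had 245.3, 1.0 and 3.6 in mutant 1, 2 and 3, and 0 in each wild type library. Nearly all of it, 98.2% of the mutant signal, came from mutant 1. hbbe1.2 had 105.6, 3.0 and 32.6 in mutant 1, 2 and 3, and 0 in each wild type library. Against the same wild type floor the mutant mean stood at 82.2-fold for hbbe1.1 and 46.4-fold for hbbe1.2. Without mutant 1 these values were 2.27 and 17.6, that of hbbe1.1 resting on 5 counts.

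The rows of hbbe2 and hbbe3 were low; in the RefSeq table these β-globin genes lie on another chromosome than the members above, beside α-globin genes of their own. hbbe3 had 26.9, 2.0 and 13.6 normalized counts in mutant 1, 2 and 3, and hbbe3_1, a row of the same symbol with a number suffix, had 50.7, 0 and 1.8. Neither had a count in any wild type library. hbbe2_1 had 20.7, 0 and 0.9 in mutant 1, 2 and 3, and 0 in wild type; with a mean of 3.60 over the 6 libraries it was the 1 member under the filter used for testing, a mean of at least 5. Against the wild type floor, the mutant means of hbbe3, hbbe3_1 and hbbe2_1 stood at 14.0-, 17.3- and 7.11-fold. Without mutant 1 these values were 7.70, 0.888 and 0.444. hbbe1.2, hbbe3 and hbbe1.3 depended least on mutant 1, which held 74.8, 63.3 and 81.4% of their mutant signal.

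Read over all 9 rows, mutant 1 was highest in 9, mutant 3 came between mutant 1 and mutant 2 in 9, and 7 rows were at 0 in all wild type libraries. In 5 rows every mutant library lay above every wild type library, as it did for 16.8% of all genes in the table; in mutant 2 this rests on 1 to 3 counts for each of these rows except hbae3. Of the 8 members past the filter, 4 would have passed it without mutant 1, so the members tested were selected by that library.

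limma, fitted over 9647 genes, called 1873 of them (19.4%) at an adjusted p of 0.05, 10.9% as higher and 8.5% as lower in the mutant. Among the 8 members tested 7 were called higher. Nothing is read from that count, because this contrast was known when the members were chosen. It also moved with the tool: edgeR called 8 of 8 as higher (11.1% of all genes), DESeq2 5 of the 7 to which it gave an adjusted p (6.86%), limma without a mean-variance trend 2 of 8 (5.99%), and limma without mutant 1 called 3 of 4 (8.32%). The fitted standard errors were smaller than those computed from the 6 values of a row alone: for hbae3 the difference of 6.12 on the log2(value + 1) scale had a limma SE of 0.955 and an ordinary SE of 1.98, and for hbae1 the difference of 4.03 had 1.21 and 2.35. limma takes the spread of a gene partly from other genes of like level.

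The share of α globin differed by less than counting error between the libraries that had globin. α rows made up 64.1% of the member counts in mutant 1 (95% exact interval 62.0 to 66.1%), 65.0% in mutant 2 (40.8 to 84.6%), 61.4% in mutant 3 (56.4 to 66.2%) and 60.0% in wild type 4 (26.2 to 87.8%). With LOC100334599 counted among the α rows the shares were 68.4% in mutant 1 (66.5 to 70.22%), 69.6% in mutant 2 (47.1 to 86.8%) and 66.5% in mutant 3 (62.0 to 70.9%). The hbbe1 rows together took 31.6% in mutant 1 (29.7 to 33.6%) and 34.0% in mutant 3 (29.3 to 38.9%). The rows of hbbe2 and hbbe3 took 4.30% (3.49 to 5.23%) and 4.60% (2.75 to 7.18%) in the same libraries. hbae1 and hbae1.3 together took 23.2% (21.4 to 25%) and 16.1% (12.6 to 20.1%), and with LOC100334599 counted in, 32.4% (30.6 to 34.3%) and 27.3% (23.2 to 31.6%), so that their intervals overlapped with that row and not without it. These are shares of 3′-end counts, not corrected for any difference in how well single transcripts are captured.

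For some single copies within these groups the shares differed beyond counting error between mutant 1 and mutant 3. This sets single libraries side by side, and the intervals leave out the spread between libraries. hbbe1.1 made up 33.9% of the counts of the hbbe1 rows in mutant 1 (30.4 to 37.5%) and 3.01% in mutant 3 (0.825 to 7.52%). hbae1 made up 12.3% of all member counts in mutant 1 (10.9 to 13.7%) and 4.09% in mutant 3 (2.36 to 6.56%), while hbae1.3 made up 10.9% (9.64 to 12.3%) and 12.0% (8.97 to 15.7%). Of the counts of the hbbe3 rows, hbbe3_1 took 65.3% in mutant 1 (53.5 to 76.0%) and 11.8% in mutant 3 (1.46 to 36.4%). The intervals of mutant 1 and mutant 3 do not overlap for these shares of hbbe1.1, hbae1 and hbbe3_1. Other copies took less of the member counts in mutant 1 than in mutant 3: hbbe1.3 took 16.3% (14.8 to 17.9%) and 23.8% (19.6 to 28.3%), and hbbe1.2 took 4.62% (3.78 to 5.57%) and 9.21% (6.53 to 12.5%).

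Put as ratios of mutant 1 to mutant 3, the rows fell into a low and a high range. hbbe3, hbbe1.2, hbbe1.3, hbae3 and hbae1.3 were 1.98, 3.24, 4.42, 5.83 and 5.85 times higher in mutant 1. hbae1, hbbe2_1, hbbe3_1 and hbbe1.1 were 19.3, 23.0, 28.2 and 68.1 times higher, with 16, 1, 2 and 4 counts in mutant 3. No counting interval was set on these ratios, which are least certain for hbbe2_1 and hbbe3_1. In the RefSeq table hbae1.1 lies between hbbe1.1 and hbbe1.2, which fell into different ranges, while hbbe1.3, hbae1.3 and hbae3 are neighbours. The rows hbbe3 and hbbe3_1, of the same RefSeq symbol, also fell into different ranges. How reads were divided between rows of like name was not stated, so the value of a single row is uncertain.

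**Figure D2:**
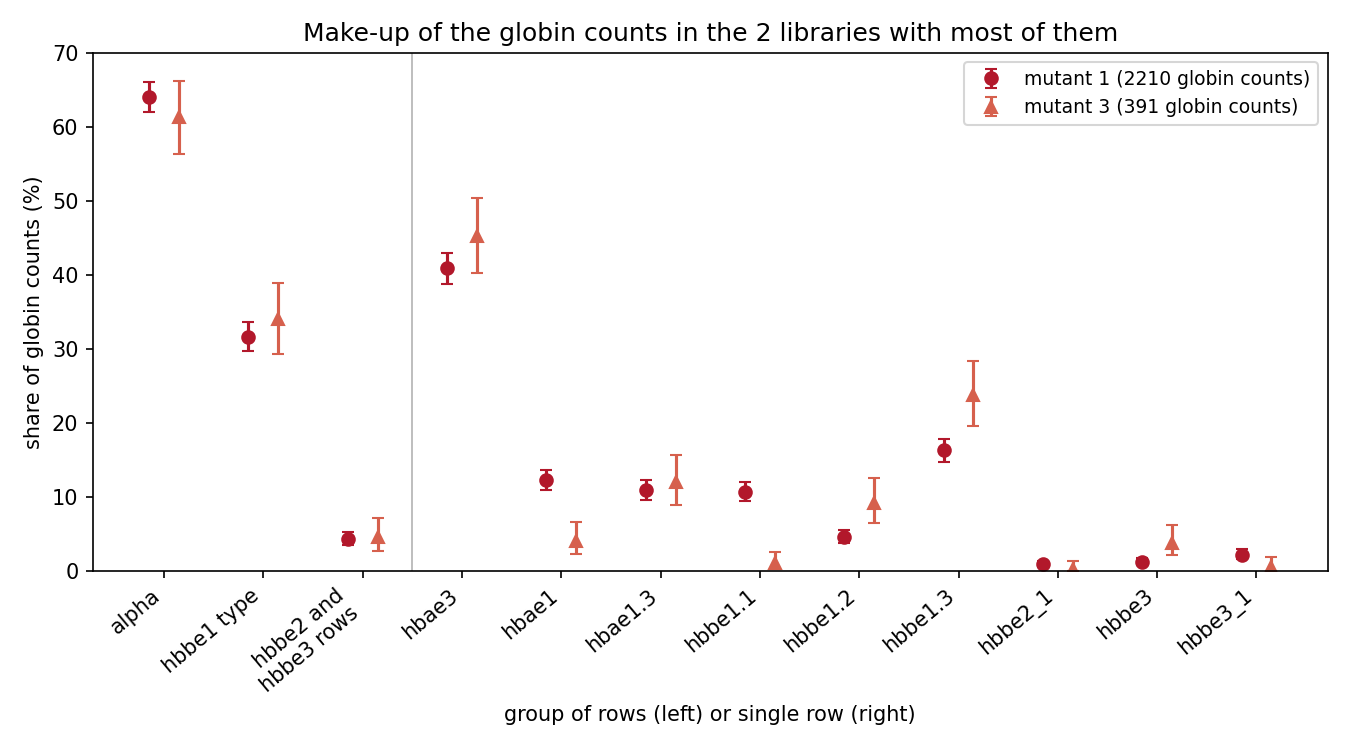
Share of the globin counts, in percent, taken by groups of rows (left of the line) and by single rows (right) in mutant 1 and mutant 3, which hold 2210 and 391 globin counts; bars are 95% exact binomial intervals. The shares of the α rows, of the hbbe1 rows together and of the hbbe2 and hbbe3 rows together overlap, while those of the single rows hbae1, hbbe1.1, hbbe1.2, hbbe1.3 and hbbe3 do not.

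The spread of the globin rows among the 3 mutant libraries was wide beside that of other genes. On the log2(value + 1) scale the range over the mutant libraries was 8.14 for hbae1, 7.55 for hbbe1.3, 6.97 for hbae1.3, 6.94 for hbbe1.1, 6.18 for hbae3, 5.69 for hbbe3_1, 4.74 for hbbe1.2 and 3.22 for hbbe3. The median range over all 9647 genes tested was 0.42, and it was 0.42 among the wild type libraries too. Of the 9639 other genes, 24 had a range of at least 3.22, LOC100334599 with 6.30 among them. With a mean of at least 20, 13 genes outside the members were over 2-fold above both other mutant libraries in mutant 1. LOC100334599 is among these 13. So are the lens crystallins cryba1b, crybb1, crybb1l2, crygmx and crygn2, which were low in every mutant library and reached that mean through wild type. The same count was 4 in mutant 2, 8 in mutant 3, and 8 to 10 in the single wild type libraries. With a mean of at least 5 the numbers were 60, 59 and 68 in mutant 1, 2 and 3. They were 64, 81 and 64 in wild type 1, 3 and 4, so mutant 1 was not set apart at that filter.

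**Figure D3:**
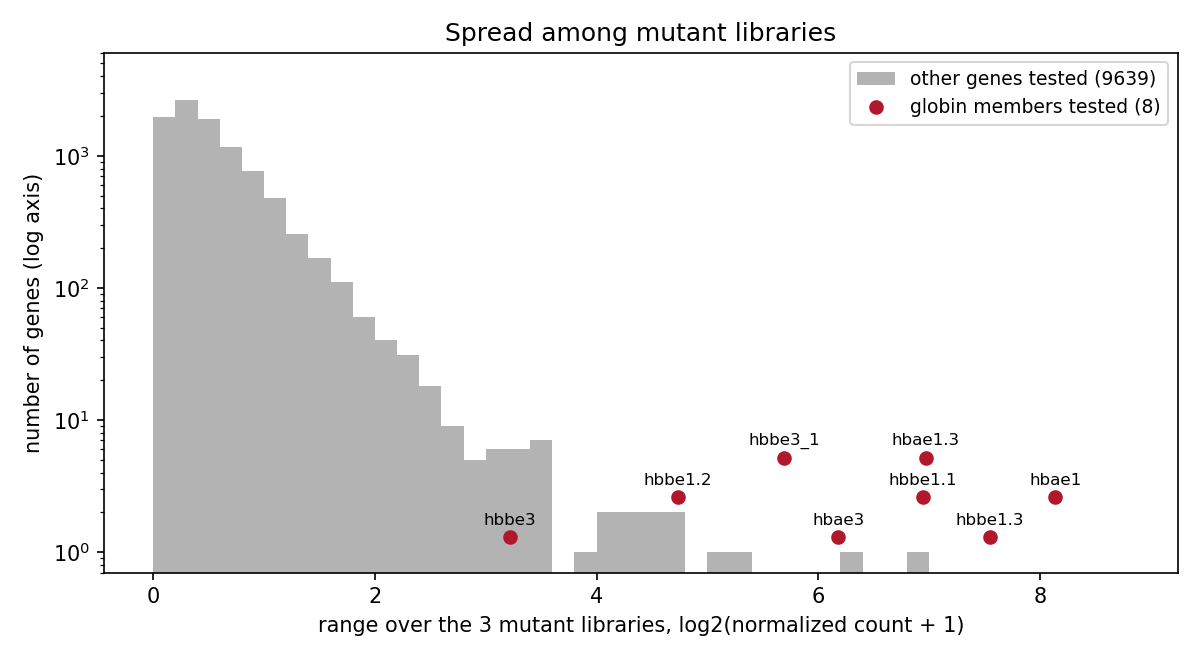
Range over the 3 mutant libraries, in log2(normalized count + 1), for 9639 other genes (grey histogram, log axis) and for the 8 globin members past the filter (red points, whose height carries no meaning). All members but hbbe3 lie beyond 4.7, where the histogram holds few genes.

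Other haemoglobin genes could not be set beside these, because the 7 names of adult and minor haemoglobin genes looked up matched 0 rows outside the members. Of the other globin family genes mb, which encodes myoglobin, the oxygen-binding protein of muscle, had 56.9, 32.7 and 66.2 normalized counts in mutant 1, 2 and 3, against 103.9, 69.3 and 81.1 in wild type 1, 3 and 4. It was lower by 0.74 ± 0.211 on the log2 scale (SE; limma adjusted p = 0.0184), a call lost without mutant 2 (-0.44, adjusted p = 0.104) or wild type 1 (-0.58, 0.0867), in DESeq2 (0.0571) and in limma without a trend (0.167). cygb1, a cytoglobin gene, had 8.07 ± 3.90 in mutants and 7.77 ± 2.71 in wild type (SD, n = 3 each) and did not pass (adjusted p = 0.993). Neither gene was highest in mutant 1.

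Other genes used by red blood cells were read over 5 lists, most of whose genes are also active in other cells. In the lists (haem synthesis, haem and iron transport, erythroid transcription factors, membrane skeleton, and enzymes and redox genes) 56 rows were found for 98 names, and 48 were tested. Of these, 4 rose, 4 fell and 40 did not pass, that is 16.7% called, against 19.4% of all genes. With the libraries brought to equal totals, which moved the median of all genes by -0.11 on the log2 scale, 2 rose and 6 fell, and over all genes 795 rose and 1306 fell, against 1053 and 820. Without mutant 3 the number called was 3 of 48, beside 1419 of 9624 over all genes tested. Without wild type 1 it was 4 of 48, beside 1619 of 9661. The median difference was 0.08, beside -0.01 over all genes tested. Their summed level was 5436, 5378 and 5136 normalized counts in mutant 1, 2 and 3, against 5155, 5090 and 5272 in wild type 1, 3 and 4. Broadly used genes carry most of this sum, fth1a with 2451.7 and prdx2 with 924.2 in mutant 1, so it says little of red blood cells. The globin order of mutant 1 above mutant 3 above mutant 2 was found in 7 of the 56 rows. They were slc4a1a, cahz, tal1, uros, fth1b, slc40a1 and cat. How many of all genes have this order was not counted, so nothing is read from the 7.

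Of the genes set as defining erythroid markers, slc4a1a and cahz had a row. slc4a1a encodes the anion exchanger of red blood cells, band 3. It had 13.5, 0 and 2.7 normalized counts in mutant 1, 2 and 3, against 0, 1.1 and 0 in wild type 1, 3 and 4. Its order among the mutant libraries is that of the globins, at a level too low for the filter. Without the filter its difference of 1.56 did not pass (limma adjusted p = 0.267). gata1a and alas2, the erythroid transcription factor and the erythroid enzyme that starts haem synthesis, matched no row by name and were not analysed here.

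cahz, the carbonic anhydrase gene of zebrafish red blood cells, had 46.6, 17.8 and 29.0 normalized counts in mutant 1, 2 and 3, against 50.8, 45.5 and 53.8 in wild type 1, 3 and 4, and was lower in the mutants by 0.77 ± 0.251 (SE; adjusted p = 0.0375). Among the mutant libraries it shares the order of the globins. Its level in wild type 1 and wild type 3, where no globin count was seen, was as high as in mutant 1. The call as lower was lost in edgeR (0.0584), in DESeq2 (0.164), in limma without a trend (0.194) and without any 1 library except mutant 1 (adjusted p of 0.202 and 0.0876 without mutant 2 and 3, and 0.0768, 0.0620 and 0.119 without wild type 1, 3 and 4), and the difference was -0.43 without mutant 2. tspo, a mitochondrial membrane gene tied to porphyrin transport, rose by 0.71 ± 0.225 (adjusted p = 0.0308), with 27.9, 31.7 and 29.9 in mutant 1, 2 and 3, against 19.6, 16.2 and 17.7 in wild type 1, 3 and 4. That call was lost in DESeq2 (0.212), with equal totals (0.0622) and without any 1 library except wild type 1 (adjusted p from 0.0564 to 0.102). The redox genes prdx2, sod1 and cat did not pass: prdx2 had 896 ± 41.3 in mutants and 895 ± 38.7 in wild type (SD, n = 3 each), sod1 120.9 ± 17.6 and 132.5 ± 5.81, and cat 37.4 ± 1.81 and 38.1 ± 4.50 in the same order.

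Of the haem synthesis enzymes 1 of 7 tested rose, beside 10.9% of all genes tested. hmbsa, the hydroxymethylbilane synthase gene, had 46.6, 36.7 and 47.1 normalized counts in mutant 1, 2 and 3, against 28.9, 22.7 and 23.3 in wild type 1, 3 and 4. The groups do not overlap, and the rise was 0.78 ± 0.200 (SE; limma adjusted p = 0.00949; 0.0787 in DESeq2). Mutant 1 and mutant 3 are level in hmbsa, whereas their globin sums differ 6.45-fold. urod had 27.4 ± 6.26 in mutants and 17.1 ± 3.96 in wild type (SD, n = 3 each; adjusted p = 0.0858). alas1, the enzyme that starts haem synthesis in cells at large, had 158.6 ± 14.6 in mutants and 165.3 ± 16.2 in wild type (adjusted p = 0.774), and uros 34.8 ± 1.83 and 35.7 ± 4.65 in the same order (adjusted p = 0.936).

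Of the 15 genes of haem and iron transport and storage 0 passed in limma, edgeR or DESeq2, while limma called 19.4% of all genes. In limma 2 of the 15 were higher and 1 lower at an unadjusted p under 0.05. fth1a, a ferritin heavy chain gene, had 2314 ± 161 in mutants and 2123 ± 71.7 in wild type (SD, n = 3 each; adjusted p = 0.238). glrx5, of iron-sulphur cluster assembly, had 120.6 ± 15.7 and 107.0 ± 5.66 in the same order (adjusted p = 0.403), and the mitochondrial carrier gene slc25a39 71.9 ± 17.1 and 97.0 ± 14.1 (adjusted p = 0.0647). slc25a39 passed as lower without mutant 2 (-0.62, 0.0139), without wild type 4 (-0.55, 0.0493) and with equal totals (-0.55, 0.0185).

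Of the 6 transcription factor genes tested, most of which are also active outside blood, 2 fell and 1 rose. Over all genes tested, 8.5% fell and 10.9% rose. tal1, needed for blood formation and also active in neurons, had 90, 57.5 and 68.0 normalized counts in mutant 1, 2 and 3, against 118.9, 107.2 and 123.7 in wild type 1, 3 and 4, and fell by 0.71 ± 0.151 (SE; adjusted p = 0.00210). Its cofactor gene ldb1a fell by 0.42 ± 0.0859 (adjusted p = 0.00167). myb, of blood progenitors and other dividing cells, had 25.9, 19.8 and 31.7 in mutant 1, 2 and 3, against 10.4, 14.1 and 14.5 in wild type 1, 3 and 4, and rose by 0.93 ± 0.271 (adjusted p = 0.0208). That call was lost without mutant 1 (0.0638), mutant 3 (0.118) or wild type 1 (0.0672) and in DESeq2 (0.124), and those of tal1 and ldb1a in limma without a trend (0.0653 and 0.0864). lmo2 had 33.1 ± 3.99 in mutants and 32.0 ± 4.84 in wild type, foxo3b 31.5 ± 1.95 and 34.8 ± 5.17, and znfl2a 8.83 ± 1.5 and 7.27 ± 0.802 (SD, n = 3 each), and none of these passed (adjusted p from 0.702 to 0.893).

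In the membrane and skeleton list 1 of 5 genes tested rose and 1 fell, beside 10.9 and 8.5% of all genes tested. epb41a, a band 4.1 gene, had 23.8, 22.8 and 21.8 normalized counts in mutant 1, 2 and 3, against 40.4, 31.4 and 45.8 in wild type 1, 3 and 4, and fell by 0.74 ± 0.209 (SE; adjusted p = 0.0168). Without mutant 3, wild type 1 or wild type 4 its adjusted p was 0.050, 0.0507 and 0.0966, and in DESeq2 it was 0.112. aqp1a.1, a water channel gene, had 94.2, 105.0 and 137.8 in mutant 1, 2 and 3, against 73.9, 57.4 and 104.4 in wild type 1, 3 and 4, and was higher by 0.53 ± 0.181 (adjusted p = 0.0448). The groups overlap, and the call was lost without mutant 2 (0.0655), mutant 3 (0.225), wild type 1 (0.0882) or wild type 3 (0.237; difference 0.33), with equal totals (0.134), in edgeR (0.0638), in DESeq2 (0.1495) and in limma without a trend (0.239). add1, add2 and ank1a did not pass, with 97.7 ± 10.6, 19.5 ± 1.91 and 10.6 ± 3.11 in mutants and 87.1 ± 9.27, 21.3 ± 4.26 and 9.13 ± 0.896 in wild type (SD, n = 3 each; adjusted p from 0.441 to 0.819).

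**Figure D4:**
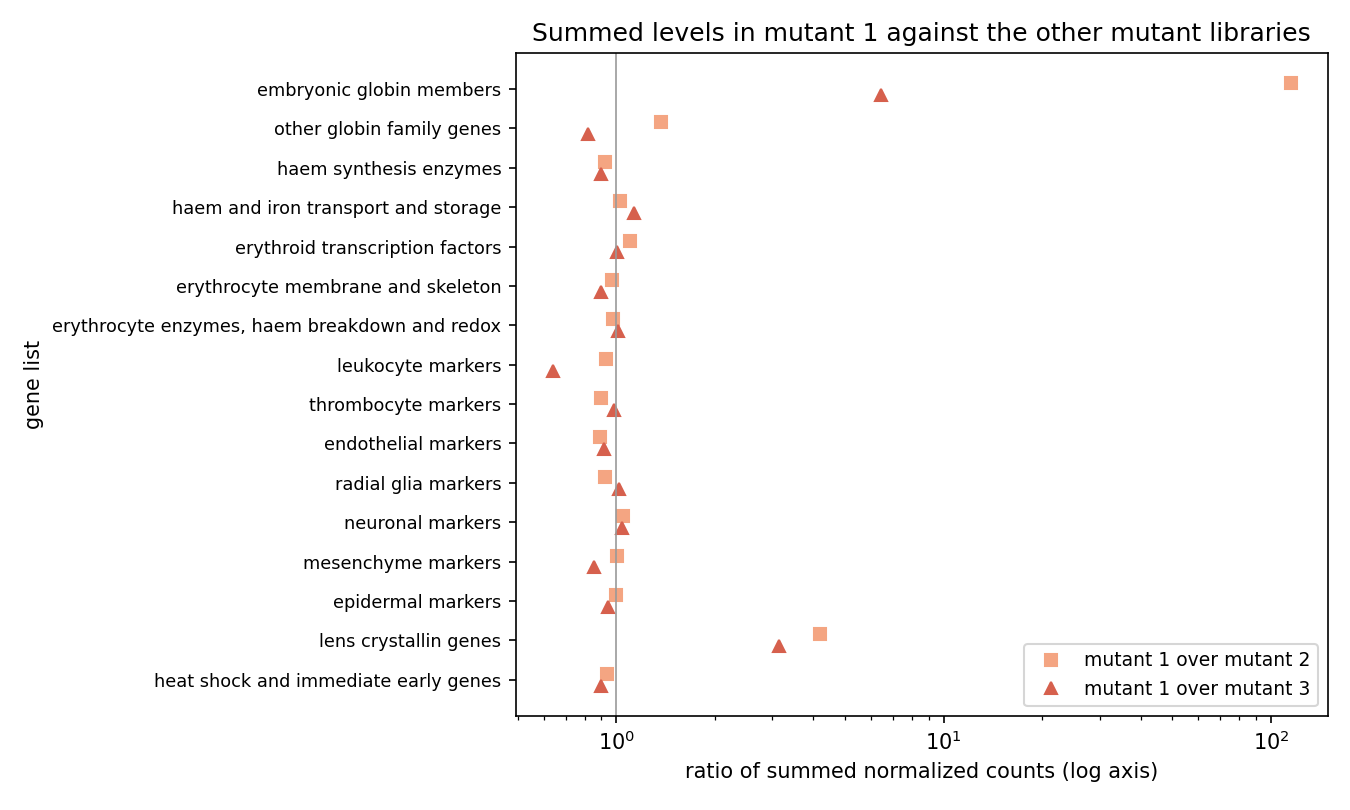
Ratio of the summed normalized counts of mutant 1 to those of mutant 2 (squares) and mutant 3 (triangles), on a log axis, for the globin members and for 15 gene lists. The globin members stand at 115 and 6.45, the lens crystallins at 4.18 and 3.14, and the other 14 lists between 0.640 and 1.37.

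Over the 7 lists of leukocyte, thrombocyte, endothelial, radial glia, neuronal, mesenchyme and epidermal markers, the summed level in mutant 1 was 0.892 to 1.05 times that in mutant 2 and 0.640 to 1.04 times that in mutant 3, lowest for leukocytes. Lens crystallins were higher in mutant 1 at a low level, with 79.5, 19.0 and 25.3 normalized counts in mutant 1, 2 and 3, against 2851, 3864 and 2990 in wild type 1, 3 and 4. Leukocyte markers (8 rows for 18 names) summed to 122.0, 130.7 and 190.5 in mutant 1, 2 and 3, against 45.1, 107.0 and 93.1 in wild type 1, 3 and 4; 1 of 6 tested rose, the macrophage gene mfap4 (by 1.59 on the log2 scale, limma adjusted p = 8.22e-04). Endothelial markers (14 rows for 22 names) summed to 273.0, 306.1 and 298.4 in mutant 1, 2 and 3, against 189.4, 195.7 and 226.3 in wild type 1, 3 and 4, with 5 of 13 higher, among them fli1a (1.81, adjusted p = 2.26e-04) and pecam1 (1.56, 0.0117), and 1 lower, cldn5b (-0.73, 0.00164). The single thrombocyte marker found, gp1bb, had 6.2, 6.9 and 6.3 in mutant 1, 2 and 3, against 3.5, 3.2 and 4.0 in wild type 1, 3 and 4. Neuronal markers were higher in 1 and lower in 8 of 17. Mesenchyme markers were higher in 11 of 12 and epidermal markers in 6 of 8, while radial glia markers were lower in 7 and higher in 2 of 14. The share to set beside the count of each list is that of all genes tested, 10.9% called higher and 8.5% lower. The epidermal entry krt18a.1 was matched through an older symbol to a row named dapk1, the name of another gene, which did not pass. Heat shock and immediate early genes were higher in 14 and lower in 1 of 20. The part of these differences in the globin levels was not tested; among these lists, the lens crystallins alone shared the order of mutant 1 above mutant 3 above mutant 2 with more than a 2-fold step between mutant 1 and either other.

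As checks of the labels, scarb2a had 1.0, 5.9 and 4.5 normalized counts in mutant 1, 2 and 3, against 3.5, 2.2 and 1.6 in wild type 1, 3 and 4, too few to test the genotype. gfap, which marks radial glia, had 25.9, 30.7 and 23.6 in mutant 1, 2 and 3, against 54.2, 52.0 and 53.8 in wild type 1, 3 and 4. It was thus present in every library, unlike the globins.

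Ranked by the distance between profiles over the 6 libraries, 1 gene came close to the summed globins. Likeness was the root mean square distance between centred log2(value + 1) profiles, ranked over 9639 genes whose median distance was 4.14. LOC100334599 came first at 1.33. arf4b, a small GTPase gene, came next at 2.46, with 21.7, 15.8 and 21.8 normalized counts in mutant 1, 2 and 3, against 0, 0 and 0.8 in wild type 1, 3 and 4. atp1a1a.2, a sodium pump subunit gene, followed at 2.62, with 18.6, 1.0 and 22.7 in mutant 1, 2 and 3, against 1.2, 0 and 0.8 in wild type 1, 3 and 4. It was 18.6 times higher in mutant 1 than in mutant 2, yet mutant 3 was higher still. The other genes ranked after LOC100334599 stood at 0.892 to 2.64 times.

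The others were hsp70.3, zgc:92480_1, si:dkey-4p15.3, hspb1, cyp51, cldne and wu:fj16a03, at distances from 2.77 to 3.04. They include heat shock genes and the sterol enzyme gene cyp51, which were higher in every mutant library. In hspb1, a small heat shock protein gene, mutant 1, 2 and 3 had 260.8, 253.6 and 204.0 normalized counts, against 19.6, 33.6 and 30.5 in wild type 1, 3 and 4. Genes of this kind resemble the globins in the step between genotypes and not in the order of the mutant libraries. Distance also counts the size of the steps, which a correlation leaves out. Pearson correlation over the 6 libraries was computed only for the 10 genes nearest by distance. Among those, wu:fj16a03 (0.969) stood beside LOC100334599 (0.963). wu:fj16a03 had 54.9, 20.8 and 59.8 normalized counts in mutant 1, 2 and 3, against 9.2, 6.5 and 14.5 in wild type 1, 3 and 4.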

How the data were processed

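Per the labels and the submitters' processing notes, polyadenylated transcripts were counted at their 3′ ends against danRer11; no aligner, counter or scaling method is named there. The authors deposited a single table of normalized signal for 11218 genes in 6 libraries. A search for the step of each library found that its deposited signal equals a count over 1 factor: counts came out whole, within 0.0505, for 99.997% of the 67308 entries, all but 2. The labels do not tell whether a count is a read or a molecule. Each listed gene reaches 6 counts in at least 1 library. No pair of libraries looked like a repeat deposit, as their counts varied beyond sampling noise (chi-square at least 1.66 times its degrees of freedom).

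The members, the 16 gene lists and the tests were chosen with earlier results of these data known. Values were set to log2(value + 1) and genes with a mean of at least 5 were fitted in limma, trend on, with genotype as the only term. p-values were adjusted over all genes tested by Benjamini and Hochberg's method, with a threshold of 0.05. Genes were named by a rule: all members, the defining erythroid markers, up to 6 called and 3 other genes of each globin and erythroid list, and the 10 genes nearest in profile. Genes of other lists, and those given as other observations, were chosen after their values were seen. Of 262 list entries, 159 were matched by symbol and 6 by an older or newer name, through RefSeq names of the assembly GRCz12tu. Coordinates of that assembly were used only to find the order of the globin genes along their chromosomes. Alternatives were pseudocounts of 0.5 and 5, other filters and scalings, limma with no trend, edgeR and DESeq2 on recovered counts, a replicate block, and each library left out. The procedure was checked on simulated data. DESeq2 1.42.0, edgeR 4.0.16 and limma 3.58.1 ran under R 4.3.3, the rest under Python 3.11.15.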

Additional observations from a re-analysis of the deposited data

How the results depend on the processing

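The count of genes called was 1873, with 1419 to 1619 when 1 library was left out; it was 1007 in limma without a trend and 1031 in DESeq2. The erythroid count of 8 was 4 and 2 under the same settings, and 3 to 9 with 1 library left out. The summed globin difference of 6.95 was 5.37 to 8.76 with 1 library left out. Numbers 1 and 3 occur in both genotypes. Same-numbered libraries deviated together no more (correlations of 0.02 and -0.05) than differently numbered ones (-0.08 to 0.11). This check cannot exclude that libraries of the same number shared a batch. With that number as a block, 1597 genes and 9 erythroid genes were called, and the globin difference was 9.82. The members' values stood under each scaling within the spread between libraries, and their calls under other tools stand in the report; for hbae3 the block gave a difference of 8.60, and a pseudocount of 5 gave 2.69 for hbbe1.2 and 1.68 for hbbe3. The block compares only libraries whose number occurs in both genotypes, so mutant 2 and wild type 4 did not enter its differences. A larger pseudocount makes log2 differences between low values smaller. The block also ended the calls of mb (adjusted p = 0.106), cahz (0.347), tspo (0.151) and epb41a (0.122), and slc25a39 (-0.73, 0.00111) and urod (0.0420) passed with it.

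Among the named genes that did not pass, 8 changed sign, all at small differences. For cygb1 (-0.01) the difference was 0.00885 with a pseudocount of 5, 0.0878 in edgeR, 0.0705 in DESeq2, and -0.31 to 0.36 with 1 library left out. With equal totals, also when computed without the globins, prdx2 was at -0.11 and lmo2 at -0.0557 and -0.0551. With the block, uros was at 0.11 and cat at 0.0932. With 1 library left out, the ranges were -0.14 to 0.0196 for alas1, -0.0912 to 0.0720 for uros, -0.0720 to 0.14 for lmo2, -0.26 to 0.0226 for add2, -0.0241 to 0.38 for ank1a, -0.0354 to 0.0396 for prdx2, and -0.11 to 0.0611 for cat. Single globin rows rest on 0 to 12 counts in mutant 2 and on 0 to 6 in wild type 4, and wild type 1 and wild type 3, with 0 globin counts, are also the libraries with the lowest totals. With 3 pools a genotype and 1 pool holding most of the globin signal, a mean over the mutants describes no single library.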

Other observations

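Some genes that are not globins also varied widely among libraries. prl, which encodes the pituitary hormone prolactin, had 0, 1.0 and 125.1 normalized counts in mutant 1, 2 and 3, against 0, 0 and 4.0 in wild type 1, 3 and 4. col10a1a, a collagen gene of maturing cartilage and bone, had 3.1, 12.9 and 156.9 in mutant 1, 2 and 3, against 9.2, 8.7 and 0 in wild type 1, 3 and 4. tagln, a smooth muscle gene, had 2.1, 76.3 and 14.5 in mutant 1, 2 and 3, against 0, 1.1 and 5.6 in wild type 1, 3 and 4. chgb, which encodes chromogranin B of secretory granules, was high in mutant 1, with 41.4, 1.0 and 4.5 in mutant 1, 2 and 3, against 8.1, 6.5 and 1.6 in wild type 1, 3 and 4. mpx, the myeloperoxidase gene of neutrophils, was highest in wild type 4, with 3.1, 0 and 0 in mutant 1, 2 and 3, against 0, 4.3 and 20.1 in wild type 1, 3 and 4.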
